A study of Mus musculus with 15 samples.

Results

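The 10 genes described here are the coreceptor and immature thymocyte genes Cd4, Cd8a, Cd8b1, Zbtb7b, Themis, Cd24a, Rag1, Rag2, Dntt and Ptcra, of 48795 genes listed in each file and 24238 with a nonzero total. They were taken as a list of names and not by their values. Their expression was read from RNAseq libraries of invariant natural killer T (iNKT) cells, from WT C57BL/6 mice aged 6 weeks. The sort kept cells stained by CD1d tetramer with PBS57 and by antibody to TCRβ, and left out cells with B220, CD11b, CD11c or CD8. The 15 libraries came from thymus (4), spleen (4), mesenteric lymph node (mLN, 4) and inguinal lymph node (iLN, 3 libraries, numbered 2 to 4; the first was not analysed here). Batch 1 holds the libraries numbered 3 and 4. Batch 2 holds those numbered 1 and 2, with 1 iLN library. No group carries a treatment or an engineered allele. Cells of lymph nodes were freed with enzymes (15 min, 37 °C) and those of the other organs through a strainer, so tissue and preparation cannot be told apart for lymph nodes against the other tissues. Whether each replicate was a single mouse or pooled mice is not in the labels, and p-values measure the spread between these libraries.

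iNKT cells arise in the thymus from CD4+CD8+ thymocytes, the stage at which the TCR α-chain is rearranged. RAG1 and RAG2 cut the DNA at V, D and J segments, and the polymerase encoded by Dntt (TdT) adds bases at the joins. Rearrangement ends as the selected cell matures, and iNKT cells of mice then keep CD4 or lose both coreceptors. In mature iNKT cells RAG1, TdT and the pre-TCR chain are therefore genes of an earlier stage, whereas Cd4, Zbtb7b and Themis can go on being expressed.

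The total expected count of a library was between 1152702 and 8670570 (median 5327351), and thymus replicate 2 was the shallowest. The defining genes of iNKT cells (Trac, Trbc1, Trbc2, Cd3e and Zbtb16) summed to between 4450 and 8670 TPM (transcript levels scaled for gene length and library size) in the 15 libraries, and each of the 5 had counts in every tissue. Markers of B cells other than Ighm (Cd79a, Cd79b, Ms4a1 and Ebf1) summed to 66.8 TPM in spleen replicate 1. In the other 14 libraries they summed to between 0.56 and 5.77 TPM. Ighm itself was at 90.8 to 236 TPM over the 15 libraries. Its log2 fold change for thymus against spleen was -0.775 (SE 0.17, edgeR adjusted p = 0.014), not called by edgeR but called by DESeq2. Markers of myeloid and dendritic cells summed to 77.2 TPM in spleen replicate 1 and to between 1.52 and 19.8 TPM in the others, with 1.52 to 4.3 TPM in thymus. Of these, Lyz2 was called lower in thymus than in spleen (log2 fold change -5.86, SE 1.22, edgeR adjusted p = 0.00997). Red cell markers summed to between 68.0 and 340 TPM in spleen, 3.72 and 66.0 in thymus, 1.24 and 3.9 in mLN and 2.29 and 16.8 in iLN, and the globin genes Hbb-bs, Hba-a2 and Hbb-bt were called lower in mLN than in spleen. The part of these cells in the values given here was not tested. Of the 6 thymic epithelial markers, Foxn1 and Krt5 were at 0 in every library, and the list summed to between 0.47 and 3.89 TPM. Libraries are bulk RNA, in which fewer cells of a type and less RNA per cell cannot be told apart.

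The genes fell into 2 levels. Cd4, Themis and Zbtb7b were abundant, with means over the 15 libraries of 88.1 ± 45.2, 55.3 ± 35.4 and 24.0 ± 7.73 TPM (SD, n = 15). The ranges of these neighbours overlapped, with 25.6 to 203 TPM for Cd4, 3.35 to 116 TPM for Themis and 12.6 to 41.6 TPM for Zbtb7b. The other 7 genes were low. Their means over the 15 libraries were 3.07 ± 4.80 TPM for Cd24a, 2.56 ± 2.08 for Cd8b1, 2.36 ± 3.02 for Cd8a, 1.36 ± 0.933 for Ptcra, 0.999 ± 2.89 for Dntt, 0.748 ± 1.65 for Rag1 and 0.103 ± 0.208 for Rag2 (SD, n = 15), and each of these overlapped its neighbours.

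**Figure D1:**
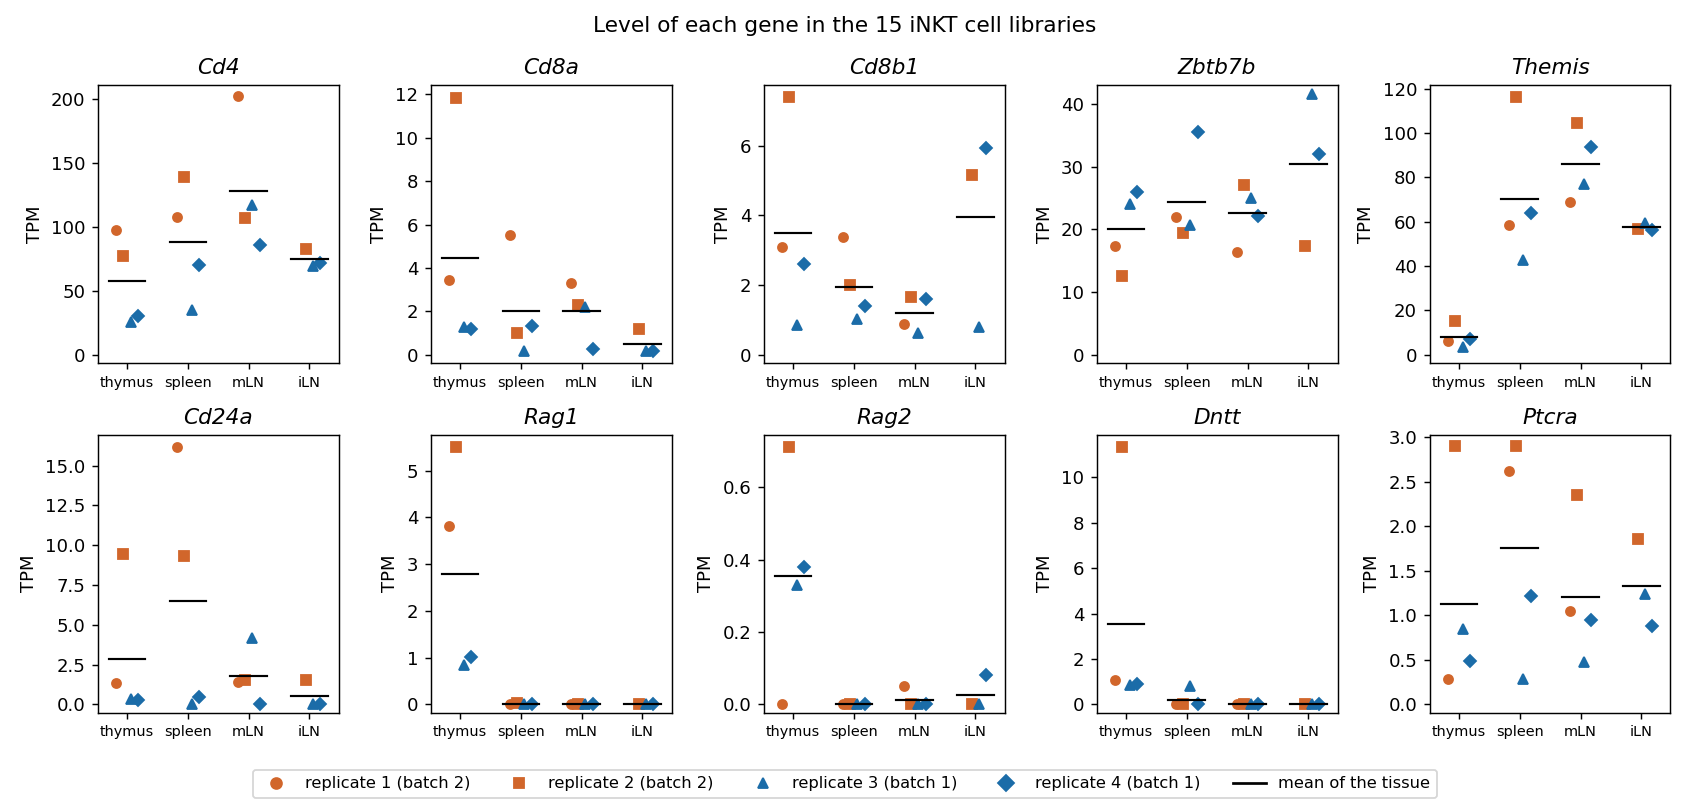
Level in TPM (y axis, a scale of its own in each panel) of the 10 genes in each of the 15 libraries, by tissue. Points are libraries, shaped by replicate and coloured by batch, and the black line is the mean of the tissue. Rag1 lay at 0.85 to 5.50 TPM in thymus and at 0 to 0.03 TPM elsewhere, and Themis at 3.35 to 15.3 TPM in thymus and at 42.9 to 116 TPM elsewhere.

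Between tissues, the genes split by direction. Rag1 was higher in thymus than in the other tissues, with 237 counts over the 4 thymus libraries and 1 count over the other 11. Themis, a signalling protein of the TCR complex, was lower in thymus than in each of the other tissues, by between 2.63 and 3.45 on the log2 scale. Cd4 was higher in mLN than in thymus by 1.22 on the log2 scale. For Zbtb7b, Cd8a, Cd8b1, Cd24a and Ptcra no difference between tissues passed the test.

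Fold changes come from 1 quasi-likelihood model of edgeR over all 15 libraries with tissue and batch as factors, on 13600 genes that passed a filter on low counts. Calls needed a fold change over 1.5 and, after Benjamini-Hochberg adjustment, p under 0.01. Of the 10 genes, 8 passed the filter, and Rag2 and Dntt did not. Rag1 passed through its thymus libraries alone and so had to differ between thymus and the others, and it is left out of the counts and medians given next. Of the 7 other genes tested, 1 was called for thymus against spleen (1.32% of all genes tested were called), with Themis lower. In mLN against thymus 2 of the 7 were called (1.6% of all genes), Cd4 and Themis, both higher. In iLN against thymus 1 was called (1.5% of all genes), with Themis higher. For thymus against the mean of the other tissues 1 of the 7 was called, again Themis (1.82% of all genes), and for the 4 tissues together, at the adjusted p alone, the count was 1 (3.38% of all genes). With Rag1 each of these 5 counts was higher by 1. Over the 7 genes the median log2 fold change was -0.47 for thymus against spleen and 0.39 for iLN against thymus, beside -0.01 and 0.03 over all genes tested. For mLN against thymus the medians were 0.11 and 0.03, and for thymus against the mean of the others -0.19 and -0.01.

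Outside the thymus no gene tested was called between tissues by edgeR. Rag1, with 1 count there, could not be called and is left out of these counts. For mLN against spleen 0 of 7 were called (0.654% of all genes), and 1 had an unadjusted p under 0.05 (Cd4). For iLN against spleen 0 of 7 were called (1.55% of all genes), and 0 had an unadjusted p under 0.05. For iLN against mLN 0 of 7 were called (0.471% of all genes), and 3 had an unadjusted p under 0.05 (Cd8a, Cd8b1 and Themis). The shares of all genes are for edgeR calls, and none is given here for an unadjusted p under 0.05. DESeq2 and limma called 0 in each of these comparisons. The comparisons of a tissue with thymus share the 4 thymus libraries.

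Of the coreceptor genes, Cd4 (ENSMUSG00000023274, chromosome 6 from 124864692 to 124888221 of GRCm38, minus strand) encodes the coreceptor that binds MHC class II and brings the kinase LCK to the TCR. Its level in CPM (counts scaled to library size after TMM normalisation, not to gene length) was 213, 140, 72.4 and 75.5 in thymus replicates 1 to 4. In spleen replicates 1 to 4 it was 197, 280, 114 and 164 CPM. It was 464, 223, 259 and 172 CPM in mLN replicates 1 to 4 and 173, 193 and 141 CPM in iLN replicates 2 to 4. The 2 lowest libraries were thymus replicates 3 and 4, the highest was mLN replicate 1, and thymus replicate 1 lay within the range of the other tissues. Means were 125 ± 66.3 CPM in thymus (SD, n = 4), 189 ± 69.8 in spleen (n = 4), 279 ± 128 in mLN (n = 4) and 169 ± 26.1 in iLN (n = 3).

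In order of these means Cd4 ran from thymus through iLN and spleen to mLN, and no neighbours in this order differed by the test. In the fit with batch iLN stood above spleen instead, by 0.05 on the log2 scale (SE 0.276, edgeR adjusted p = 0.962). The called difference was mLN over thymus, by 1.22 on the log2 scale (SE 0.256, edgeR adjusted p = 0.00893). For thymus against spleen it was -0.64 (SE 0.254, adjusted p = 0.302), for iLN against thymus 0.69 (SE 0.279, adjusted p = 0.205) and for mLN against spleen 0.58 (SE 0.251, adjusted p = 0.338). The Cd4 call rested on single libraries and settings: the adjusted p was between 7.34e-08 and 0.41 over 15 alternatives, and 6 of them kept the call. Leaving out all libraries of replicate 1, 2, 3 or 4 in turn gave edgeR adjusted p of 0.0133 (replicate 1), 0.14 (replicate 3) and 0.0926 (replicate 4), and the call held when replicate 2 was the one left out. It was also lost without thymus replicate 2 (log2 fold change 1.18, adjusted p = 0.043) and without spleen replicate 1 (1.22, adjusted p = 0.0111).

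The Cd4 values also differed between batches. Batch 2 was above batch 1 by 0.76 on the log2 scale over the 4 tissues (SE 0.19, edgeR adjusted p = 0.0152, above the threshold of 0.01). Within batch 1 the log2 fold change of mLN over thymus for Cd4 was 1.54 (SE 0.267, adjusted p = 0.0194), and within batch 2 it was 0.96 (SE 0.343, adjusted p = 0.41). In batch 1 both thymus libraries lay below all 6 other libraries of that batch. In batch 2 the thymus libraries overlapped spleen and iLN, and the difference between iLN and thymus turned from 0.69 in the fit of both batches to -0.05 with batch 2 alone, where iLN had 1 library.

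**Figure D2:**
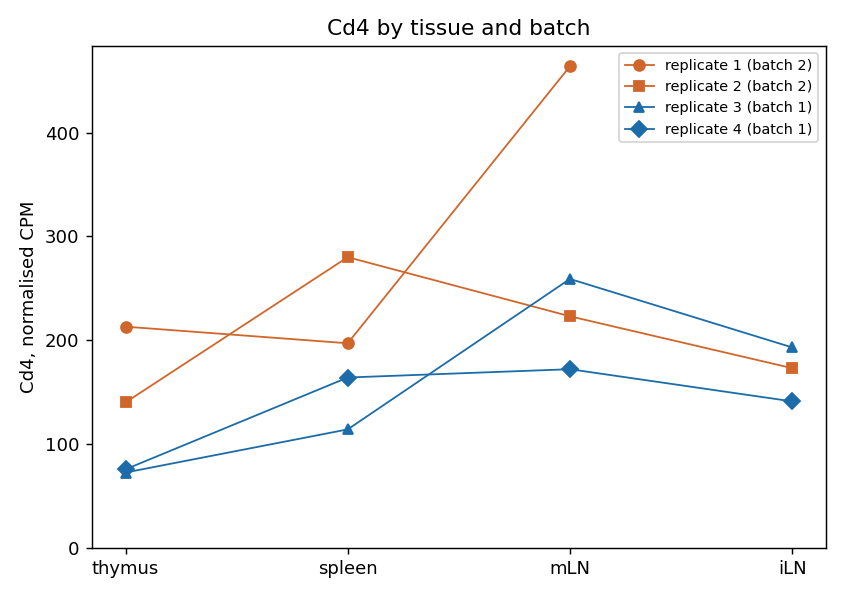
Cd4 in normalised CPM (y axis) by tissue, with lines joining the libraries that share a replicate number. Replicates 3 and 4 (batch 1, blue) started at 72.4 and 75.5 CPM in thymus, and replicates 1 and 2 (batch 2, orange) at 213 and 140 CPM.

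Cd8a (ENSMUSG00000053977, chromosome 6 from 71373427 to 71379173, plus strand) and Cd8b1 (ENSMUSG00000053044, chromosome 6 from 71322788 to 71337494, plus strand) encode the α- and β-chains of CD8, the coreceptor for MHC class I, and lie next to each other. The sort removed cells with surface CD8. Cd8a was at 6.05, 20.6, 3.86 and 2.85 CPM in thymus replicates 1 to 4 and at 8.98, 1.95, 0.498 and 3.05 CPM in spleen replicates 1 to 4. In mLN replicates 1 to 4 it was at 7.39, 4.79, 4.99 and 0.578 CPM, and in iLN replicates 2 to 4 at 2.33, 0.542 and 0.342 CPM. The highest library was thymus replicate 2, and the tissues overlapped. The log2 fold change of Cd8a was 1.48 for thymus against the mean of the other tissues (SE 0.602, edgeR adjusted p = 0.26) and -2.70 for iLN against thymus (SE 0.926, adjusted p = 0.131).

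Cd8b1 was at 3.09, 5.88, 1.10 and 3.04 CPM in thymus replicates 1 to 4, at 2.76, 1.80, 1.5 and 1.42 CPM in spleen, at 0.908, 1.60, 0.624 and 1.54 CPM in mLN and at 4.84, 1.08 and 5.13 CPM in iLN replicates 2 to 4. Its order differed from that of Cd8a, with 2 of the 3 iLN libraries among the highest. For thymus against the mean of the other tissues the log2 fold change of Cd8b1 was 0.58 (SE 0.615, edgeR adjusted p = 0.769). Cd8b1 had counts that were not whole numbers in 15 of 15 libraries (tolerance 0.004), so RSEM shared some of its fragments with another gene, whereas those of Cd8a were whole in all 15. Over 15 libraries Cd8b1 held 196 counts and Cd8a 361. On the TPM scale the ratio of Cd4 to Cd8a was lowest in thymus replicate 2, at 6.51, and highest in iLN replicate 4, at 399.

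Zbtb7b (ENSMUSG00000028042, chromosome 3 from 89377644 to 89394776, minus strand) encodes ThPOK, the transcription factor that commits thymocytes to the CD4 lineage and represses Cd8 genes. It was at 47.3, 27.2, 73.5 and 82.9 CPM in thymus replicates 1 to 4 and at 47.4, 47.5, 84.0 and 92.9 CPM in spleen. In mLN it was at 32.0, 59.1, 60.1 and 57.4 CPM, and in iLN replicates 2 to 4 at 45.2, 147 and 62.4 CPM. The 4 tissues overlapped, and no tissue comparison was called. For thymus against the mean of the other tissues the log2 fold change was -0.19 (SE 0.227, edgeR adjusted p = 0.807). Batch 2 against batch 1 was -0.84 on the log2 scale for Zbtb7b, the opposite sign to Cd4 (SE 0.204, edgeR adjusted p = 0.0121, above the threshold). The ratio of Cd4 to Zbtb7b in TPM was between 1.07 and 2.24 in 6 of the batch 1 libraries, all but mLN, and between 3.87 and 12.3 in the other 9. Exons of Zbtb7b overlap the antisense gene Gm15417, which held 104 counts, and the library kit does not keep strand.

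Themis (ENSMUSG00000049109, chromosome 10 from 28668360 to 28883818, plus strand) encodes a protein that binds GRB2 and the phosphatase SHP-1 below the TCR and is needed for thymocytes to pass positive selection. It was at 16.8, 28.7, 13.5 and 17.3 CPM in thymus replicates 1 to 4. In spleen replicates 1 to 4 it was at 104, 228, 140 and 146 CPM. It was at 193, 246, 172 and 191 CPM in mLN replicates 1 to 4 and at 105, 139 and 85.7 CPM in iLN replicates 2 to 4. All 4 thymus libraries lay below all 11 others. This holds for 0.559% of the 13600 genes tested.

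The mean of Themis was 19.1 ± 6.62 CPM in thymus (SD, n = 4), 110 ± 26.8 in iLN (n = 3), 155 ± 52.6 in spleen (n = 4) and 201 ± 31.9 in mLN (n = 4). The log2 fold change was -3.08 for thymus against spleen (SE 0.257, edgeR adjusted p = 5.57e-07), 3.45 for mLN against thymus (SE 0.26, adjusted p = 1.79e-07) and 2.63 for iLN against thymus (SE 0.267, adjusted p = 1.04e-05). Between the peripheral tissues Themis was not called, with 0.37 for mLN against spleen (SE 0.227, adjusted p = 0.561), -0.44 for iLN against spleen (SE 0.251, adjusted p = 0.413) and -0.82 for iLN against mLN (SE 0.253, adjusted p = 0.116). Within batch 1 the log2 fold change of thymus against the mean of the other tissues was -3.20 (SE 0.255), and within batch 2 it was -2.85 (SE 0.382). Markers of the NKT1 subset (Tbx21, Il2rb, Klrb1c and Xcl1) summed to between 1150 and 1650 TPM in thymus, between 990 and 1610 in spleen, between 591 and 1000 in mLN and between 691 and 831 in iLN. Of these, Klrb1c and Xcl1 were called higher in thymus than in the mean of the others. Markers of the NKT17 subset (Ccr6, Il23r, Sdc1 and Il1r1) summed to between 2.67 and 7.64 TPM in thymus, 1.45 and 10.5 in spleen, 12.0 and 44.8 in mLN and 113 and 267 in iLN, and 4 of the 4 were called higher in iLN than in thymus. Markers of the NKT2 subset (Zbtb16, Il4, Il13 and Plac8) summed to between 67.0 and 102 TPM in thymus, 75.7 and 108 in spleen, 106 and 210 in mLN and 91.5 and 107 in iLN. In mLN Plac8 alone was at 31.56 to 123.41 TPM. By edgeR 0 of the 4 were called in any pair of tissues, and their directions differed. For thymus against the mean of the others the log2 fold change was 2.29 for Il13 (edgeR adjusted p = 0.141). It was -0.588 for Zbtb16 (adjusted p = 0.0588), -0.631 for Plac8 (0.539) and -0.202 for Il4 (0.903). The part of subset composition in the Themis difference was not tested. Exons of Themis overlap the pseudogene 4930519F09Rik on the other strand, which held 47 counts against 10769 for Themis. In 14 of 15 libraries the count of Themis was not a whole number (tolerance 0.004), so RSEM shared some of its fragments with another gene.

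**Figure D3:**
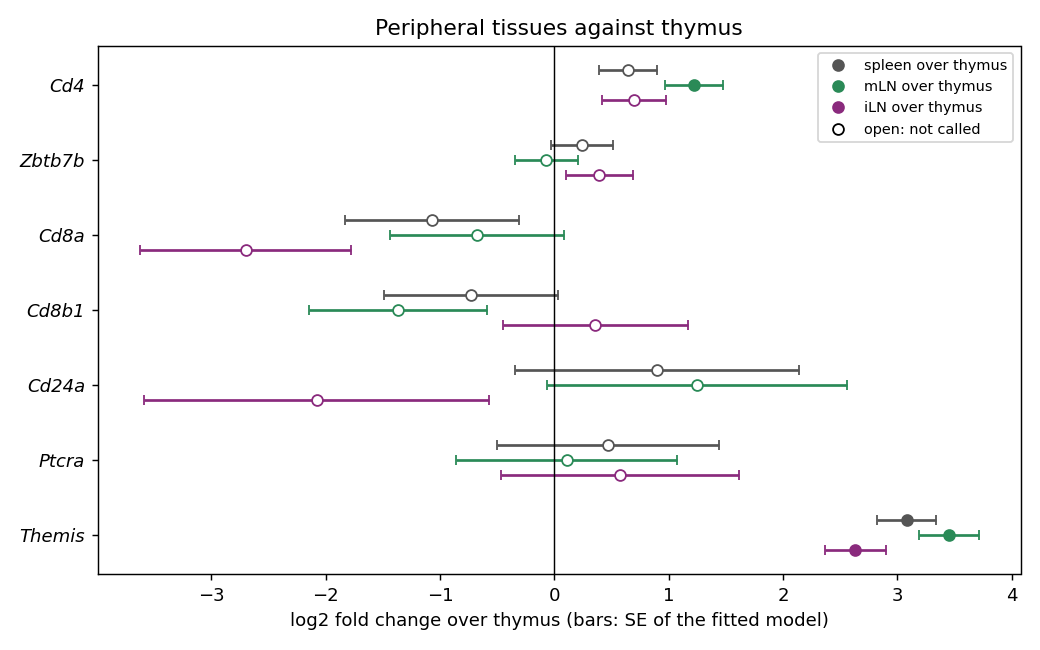
Log2 fold change over thymus (x axis) of 7 genes in spleen, mLN and iLN, from the edgeR fit, with bars of 1 SE. Filled points passed the adjusted p and fold change thresholds and open points did not. Themis lay between 2.63 and 3.45, and Cd4 in mLN at 1.22.

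Cd24a (ENSMUSG00000047139, chromosome 10 from 43578284 to 43584265, plus strand) encodes heat-stable antigen, a surface protein of immature thymocytes and of the earliest iNKT cells that is also abundant on B cells. It was at 1.73, 9.56, 0.551 and 0.379 CPM in thymus replicates 1 to 4 and at 16.6, 10.7, 0 and 0.61 CPM in spleen replicates 1 to 4. In mLN it was at 1.82, 1.89, 5.41 and 0 CPM, and in iLN replicates 2 to 4 at 1.79, 0 and 0 CPM. Spleen replicate 1 was the highest of the 15. It was also the library with 66.8 TPM of B cell markers other than Ighm. Spleen replicate 2, the next in Cd24a, had a sum of 4.32 TPM, below 2 of the 3 iLN libraries (5.73 and 5.77 TPM). Cd8a was likewise highest in spleen replicate 1 among the spleen libraries. The part of B cell or dendritic cell RNA in these values was not tested. For thymus against the mean of the other tissues the log2 fold change of Cd24a was -0.03 (SE 1.56, edgeR adjusted p = 0.998), and 0.21 without spleen replicate 1 (adjusted p = 0.967). Its batch difference was 3.11 on the log2 scale (edgeR adjusted p = 0.0746).

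**Figure D4:**
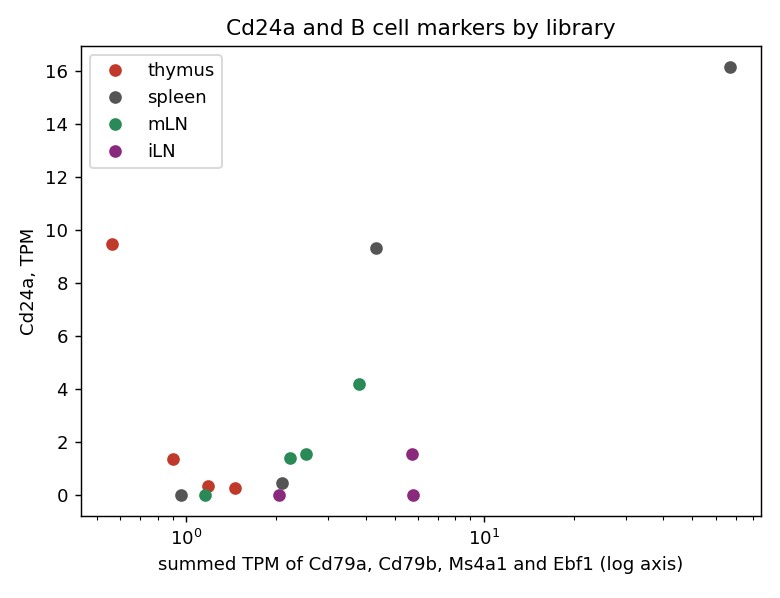
Cd24a in TPM (y axis) against the summed TPM of the B cell markers Cd79a, Cd79b, Ms4a1 and Ebf1 (x axis, log scale) in the 15 libraries, coloured by tissue. Spleen replicate 1 stands apart at 66.8 TPM of B cell markers, and thymus replicate 2 had 9.47 TPM of Cd24a at the lowest sum of B cell markers, 0.56 TPM.

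For the recombination genes, counts outside the thymus were at or near 0. Given here are the 250 bases before the annotated start of Rag1 and Dntt, which were higher in thymus, and of Themis, which was lower, so that the upstream sequence can be read beside the values. Each is from RefSeq on GRCm38.p6, written 5′ to 3′ on the strand of the gene, with capitals at every CANNTG, the E-box letters that E proteins such as those of Tcf3 and Tcf12 can bind.
Rag1, chr2:101649533-101649782, minus strand: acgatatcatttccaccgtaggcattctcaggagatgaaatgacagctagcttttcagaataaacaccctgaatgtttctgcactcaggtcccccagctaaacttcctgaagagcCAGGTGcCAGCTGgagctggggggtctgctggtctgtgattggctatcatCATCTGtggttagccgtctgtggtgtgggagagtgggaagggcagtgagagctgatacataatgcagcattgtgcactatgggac
Dntt, chr19:41029025-41029274, plus strand: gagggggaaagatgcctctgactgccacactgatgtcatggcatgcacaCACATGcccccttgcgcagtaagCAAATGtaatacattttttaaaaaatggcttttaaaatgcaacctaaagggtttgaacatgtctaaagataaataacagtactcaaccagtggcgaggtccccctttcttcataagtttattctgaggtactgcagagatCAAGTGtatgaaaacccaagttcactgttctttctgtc
Themis, chr10:28668110-28668359, plus strand: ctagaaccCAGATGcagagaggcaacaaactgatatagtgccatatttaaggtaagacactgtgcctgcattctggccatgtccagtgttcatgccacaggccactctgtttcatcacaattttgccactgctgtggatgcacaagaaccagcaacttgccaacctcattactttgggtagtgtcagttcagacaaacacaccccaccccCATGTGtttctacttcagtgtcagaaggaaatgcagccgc
CANNTG reads the same on both strands and was the only motif searched. Rag1 and Dntt have 3 matches each and Themis has 2, whereas 66.2% of 32851 promoter windows of that length have at least 1 and 12.2% have 3 or more. A match is a description of letters and not a binding site. The windows were picked by the direction of the gene, and those of the other members are not given. No enrichment can therefore be read from these matches. Of the 10 genes, 7 had a window in the table.

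Rag1 (ENSMUSG00000061311, chromosome 2 from 101638282 to 101649501, minus strand) encodes the DNA-cutting subunit of the recombinase. It was at 19.3, 22.1, 5.51 and 5.88 CPM in thymus replicates 1 to 4, from 156, 30, 20 and 31 counts. Of the 11 other libraries, spleen replicate 2 had 1 count, 0.15 CPM, and 10 had 0. All 4 thymus libraries lay above all others, as for 0.912% of the genes tested, and Rag1 was among the genes tested because of them. The mean in thymus was 13.2 ± 8.71 CPM (SD, n = 4). From pooled counts, thymus was above spleen by a ratio of 332, with a 95% counting interval of 59.0 to 13200. It was at least 106-fold higher than in mLN and at least 65.0-fold higher than in iLN, against a floor of 3 counts over each group. Thymus replicate 1 held 156 of the 237 counts. Without it the ratio to spleen was 203 (95% counting interval 35.4 to 8120), and the bounds were at least 64.7-fold against mLN and at least 39.8-fold against iLN. The ratio to spleen rests on 1 spleen count. These intervals and floors cover counting error only.

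The edgeR values of Rag1 are a description, since the filter kept the gene for its level in thymus. The adjusted p was 0.00118 for thymus against spleen, 6.28e-04 for mLN against thymus, 0.00339 for iLN against thymus and 1.41e-05 for thymus against the mean of the others. The call against that mean was kept in 12 of 14 alternatives, but with 1 batch alone the adjusted p was 0.0192 (batch 1) and 0.0103 (batch 2). The call against spleen was kept in 7 of 14 alternatives and was lost without replicate 1, 2, 3 or 4 in turn, at adjusted p between 0.0184 and 0.0198, with limma and with either batch alone. That against mLN was kept in 7 of 14, and without replicates 1 to 4 in turn its adjusted p was between 0.01 and 0.0168, with limma and either batch alone again losing it. That against iLN was kept in 6 of 14. It was lost with the replicate block (adjusted p = 0.0102), limma (0.0265), batch 1 alone (0.0744), batch 2 alone (0.345), without thymus replicate 2 (0.0139) and without replicate 2, 3 or 4 of all tissues (0.0488 to 0.0615). The 2 batch 2 thymus libraries held 19.3 and 22.1 CPM and the 2 batch 1 libraries 5.51 and 5.88 CPM, and the batch difference of 1.68 on the log2 scale did not pass the test (SE 0.867, edgeR adjusted p = 0.253).

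Rag2 (ENSMUSG00000032864, chromosome 2 from 101624718 to 101632529, plus strand), the partner subunit beside Rag1, was near the limit of detection. Its counts were 0, 1, 2 and 3 in thymus replicates 1 to 4 and 1 each in mLN replicate 1 and iLN replicate 4. The other 9 libraries outside the thymus had 0. The mean was 0.464 ± 0.32 CPM in thymus (SD, n = 4) and 0.0273 ± 0.0615 CPM in the other libraries (n = 11). The difference of 0.436 CPM had p = 0.00879 by the exact permutation test (two-sided, 1365 arrangements), and p was between 0.00275 and 0.033 when a thymus library was left out. Pooled over tissues, 6 counts in thymus against 2 elsewhere gave a ratio of CPM of 10.7, with a 95% counting interval of 1.91 to 108. By tissue it was 8.04 against mLN (0.975 to 370) and 4.94 against iLN (0.599 to 227), both intervals reaching below 1. Against spleen, which had 0 counts, it was at least 2.8. These intervals and this bound cover counting error only. Exons of Rag1 and Rag2 overlap B230118H07Rik, which had 0 counts in the 15 libraries.

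Dntt (ENSMUSG00000025014, chromosome 19 from 41029275 to 41059525, plus strand) was at 1.60, 13.2, 1.65 and 1.52 CPM in thymus replicates 1 to 4, from 13, 18, 6 and 8 counts. Outside the thymus, spleen replicate 3 had 7 counts, 1.74 CPM, and the other 10 libraries had 0. Thymus replicate 2, the shallowest library, was far above the other thymus libraries, and spleen replicate 3 lay above thymus replicates 1, 3 and 4. The mean was 4.50 ± 5.82 CPM in thymus (SD, n = 4) and 0.159 ± 0.526 CPM elsewhere (n = 11). The difference of 4.34 CPM had p = 0.00293 by the same exact permutation test, and without thymus replicate 2 it was 1.43 CPM with p = 0.011. These were 2 permutation tests, and their p-values were not adjusted. From pooled counts, the ratio of thymus to spleen was 9.0 (95% counting interval 4.03 to 23.7), and thymus was at least 20.1-fold higher than mLN and at least 12.3-fold higher than iLN. Without thymus replicate 2 the ratio to spleen was 5.83 (2.48 to 15.9), and the bound against iLN was at least 8.0-fold. These intervals and bounds cover counting error only and not the spread between libraries, and all 7 spleen counts lay in spleen replicate 3. By DESeq2 the log2 fold change of Dntt for thymus against spleen was 4.06 (SE 3.25, DESeq2 adjusted p = 0.719).

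Ptcra (ENSMUSG00000036858, chromosome 17 from 46755663 to 46763712, minus strand) encodes the pre-TCR α-chain, which pairs with the β-chain before the α-chain locus is rearranged. Unlike Rag1 it had counts in all 15 libraries. It was at 0.247, 2.21, 0.826 and 0.569 CPM in thymus replicates 1 to 4, at 1.78, 2.25, 0.249 and 1.02 CPM in spleen, at 0.908, 1.89, 0.416 and 0.771 CPM in mLN and at 1.44, 1.35 and 0.684 CPM in iLN replicates 2 to 4. Tissues overlapped, and for thymus against the mean of the others the log2 fold change was -0.38 (SE 0.827, edgeR adjusted p = 0.904). Ptcra had 93 counts over all libraries, and in 13 of 15 libraries its count was not a whole number.

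**Figure D5:**
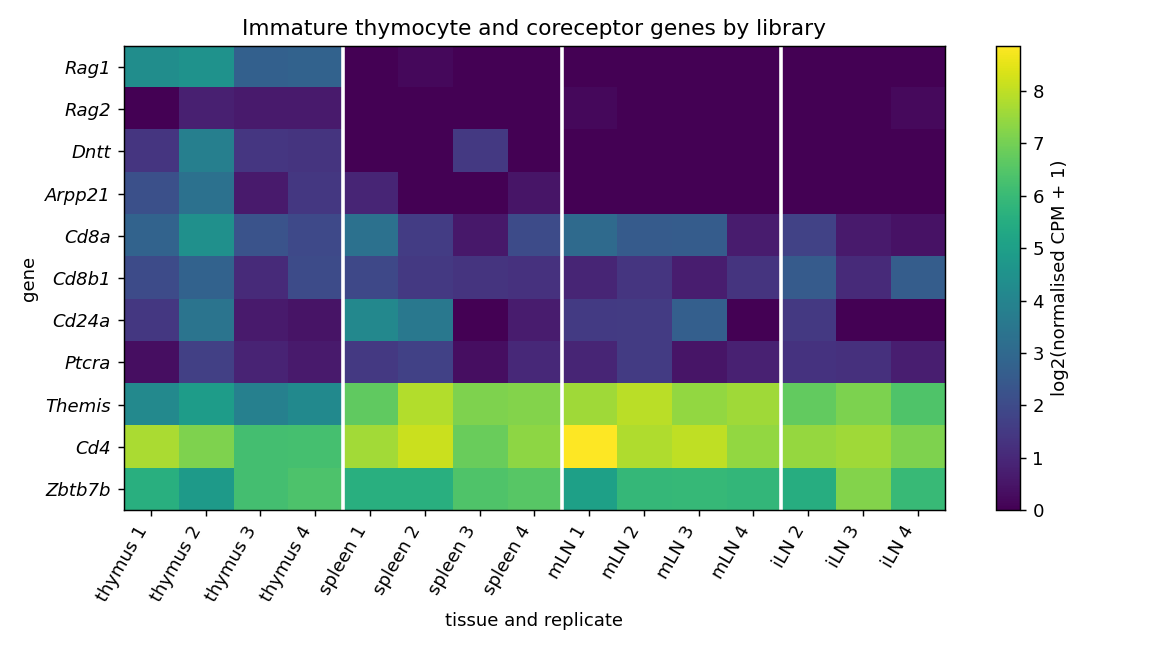
Colour gives log2(normalised CPM + 1) of the 10 genes and of Arpp21, a gene of CD4+CD8+ thymocytes, in each library (x axis), with white lines between tissues. Rag1 was above 5 CPM in all 4 thymus libraries. Thymus replicate 2, the shallowest library, holds the highest values of Rag1, Rag2, Dntt, Cd8a and Cd8b1 of all libraries. For Rag2, 5 of the 6 thymus counts lay outside that library.

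Thymus replicate 2 was the highest thymus library for Rag1, Rag2, Dntt, Ptcra, Cd8a, Cd8b1, Cd24a and Themis, although not for Cd4 or Zbtb7b. It had 1152702 counts in all, so that its 22.1 CPM of Rag1 rests on 30 counts and its 13.2 CPM of Dntt on 18. Rag2 had 6 counts over the thymus libraries, and 5 of them lay outside replicate 2. Ptcra had 11 counts over the thymus libraries. Arpp21, a marker of CD4+CD8+ thymocytes outside the 10, was at 3.46, 8.82, 0.551 and 1.71 CPM in thymus replicates 1 to 4, again highest in replicate 2. It had 51 counts over the thymus libraries, 11 over spleen and 0 over mLN and iLN. A second such gene, Aqp11, was at 9.87, 19.1, 7.99 and 7.40 CPM in the thymus libraries, with a log2 fold change of 1.23 for thymus against the mean of the others (edgeR adjusted p = 0.145). The third, Mns1, was at 46.3, 49.2, 21.2 and 23.9 CPM, with 1.2 (adjusted p = 0.0232), and the fourth, Ccr9, was lower in thymus. The part of residual CD4+CD8+ thymocytes in the thymus values was not tested.

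Other genes of the pathways were read from lists of known members. Of 17 thymocyte-stage genes 14 were tested, and for thymus against the mean of the others 1 was called higher (Itm2a) and 3 lower (Il2ra, Ccr9 and Dtx1) by edgeR, beside 1.82% of all genes. An unadjusted p under 0.05 was found for 8 of them, limma called 4, and DESeq2 called 6, with Arpp21 and Mns1 added as higher in thymus, so that 3 were higher and 3 lower. The 1.82% is the share of all genes called by edgeR. No such share is given here for unadjusted p, limma or DESeq2, in this list or those below. Counts by these measures therefore cannot be set against all genes. The median log2 fold change of the 14 was -0.02, beside -0.01 over all genes tested. Il2ra, the IL-2 receptor α-chain of early thymocytes and of activated T cells, was at 5.15 to 14.9 CPM in thymus and at 86.1 to 314 CPM in the other tissues, and thymus stood at -3.78 on the log2 scale (SE 0.244, edgeR adjusted p = 3.35e-08). Ccr9, the gut-homing chemokine receptor, was lower by -1.81 (SE 0.189, adjusted p = 5.9e-06), with iLN (26.8 to 46.5 CPM) overlapping thymus (16.9 to 65.0 CPM). Dtx1, a Notch target, changed by -2.54 (SE 0.294, adjusted p = 1.75e-05). Itm2a, a membrane protein induced in positive selection, was at 39.7 to 50.7 CPM in thymus and at 2.03 to 19.7 CPM elsewhere, with 2.71 (SE 0.35, adjusted p = 6.07e-05).

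Of 12 regulators of the coreceptor lineages, all tested, 0 were called higher and 2 lower in thymus than in the mean of the others, Runx1 and Tcf7, by edgeR, beside 1.82% of all genes (7 had an unadjusted p under 0.05, and DESeq2 called 3 and limma 2). The median log2 fold change of the 12 was -0.01. Runx1, which acts with CBFβ at the Cd4 silencer and in T cell development, was at 95.4 to 130 CPM in thymus and at 166 to 331 CPM elsewhere, without overlap, as for 0.559% of the genes tested, and differed by -1.10 (SE 0.125, edgeR adjusted p = 1.41e-05). Tcf7, which encodes TCF-1, was at 101 to 162 CPM in thymus and spleen and at 291 to 529 CPM in mLN and iLN, with -0.98 for thymus against the mean of the others (SE 0.153, adjusted p = 5.23e-04). Its partner Lef1 was called in mLN against thymus, by 1.01 (SE 0.172, adjusted p = 0.00157). Tox, a factor needed for CD4 lineage development, was lowest in spleen, at 26.3 to 37.9 CPM, with 1.75 for thymus against spleen (SE 0.256, adjusted p = 3.9e-04) and 1.47 for mLN against spleen (SE 0.253, adjusted p = 0.0048).

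Next come the general factors that work with RAG or join the ends it cuts. Of 8 such genes (Dclre1c, Prkdc, Xrcc4, Xrcc5, Xrcc6, Lig4, Nhej1 and Hmgb1) 7 were tested and 0 were called for thymus against the mean of the others by edgeR (1.82% of all genes), 0 had an unadjusted p under 0.05, and DESeq2 and limma called 0. The median log2 fold change of the 7 was 0.11. Of 8 partners of TCR and coreceptor signalling, all tested, 1 was called (1.82% of all genes), and 2 had an unadjusted p under 0.05, DESeq2 called 1 and limma 0. It was Ptpn6, which encodes SHP-1, the phosphatase that THEMIS binds. Ptpn6 went the other way from Themis, at 129 to 272 CPM in thymus and 51.1 to 111 CPM elsewhere, and differed by 1.54 for thymus against the mean of the others (SE 0.169, edgeR adjusted p = 1e-05). Lck, Cd3e, Cd3d, Cd3g, Cd247, Grb2 and Tespa1 were not called in any pair of tissues.

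Genes whose pattern was most like that of the 3 abundant genes were found by Pearson's r of log2(CPM + 0.5) over the 15 libraries with batch means removed. They are given as a description, since libraries share tissue and depth. For Themis these were Runx1 (r = 0.94), St6galnac3 (0.902) and 1700008O03Rik (0.896). For Cd4 they were Fam172a (0.859), Exoc4 (0.859) and Slc4a7 (0.855), and for Zbtb7b they were Eif4ebp3 (0.903), Reps1 (0.851) and Glmp (0.835). Eif4ebp3 was low, with a mean of 1.81 CPM.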

How the data were processed

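RNA of sorted iNKT cells from 15 samples was sequenced as paired reads with a kit that does not keep strand. The authors trimmed reads with Cutadapt 1.7.1 (quality threshold 10) and ran RSEM 1.2.31 with Bowtie2 2.2.9 on GRCm38.p6, the versions being from the submitters' processing notes. The annotation release is not given in the sources used here. The expected counts that the authors deposited are RSEM's estimates of fragments per gene, a fragment with several possible genes being split among them, with no filter. The authors also deposited TPM, in which each count is divided by the gene's effective length before scaling to a fixed total, and these were used to compare genes with each other. FPKM was not used here.

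Expected counts were rounded to whole numbers, filtered with filterByExpr of edgeR 4.0.16 (limma 3.58.1, R 4.3.3; 13600 genes left), normalised by TMM (factors 0.7547 to 1.183) and fitted with robust glmQLFit with tissue and batch as factors, the factors of the study's own model. SE is the log2 fold change divided by the square root of F. The 6 pairs of tissues, thymus against the mean of the others and the 4 tissues together were tested, with Benjamini-Hochberg adjustment over all genes tested. Of the 10 genes, the 2 removed by the filter (Rag2 and Dntt) were tested with two-sided exact permutation tests of mean CPM (thymus against the other 11 libraries), and list genes removed by it were not tested. Alternatives were DESeq2 1.42.0, RLE normalisation, no filter, a minimum of 10 counts per sample, a replicate block in place of batch, no batch term, limma on log2(TPM + 1), each batch alone, no thymus replicate 2 and each replicate left out. Alternatives chosen after seeing the data left out spleen replicate 1, Rag1 from the counts and, for pooled ratios, each thymus library. The edgeR fit was tested on simulated counts, for thymus against the mean of the others. It called 19.8% of genes with a true log2 change of 1 in size and 64.7% of those with 2. Of 13087 unchanged genes it called 0. Total counts per library were between 1152702 and 8670570, so that 3 counts are a floor for genes listed at 0. No library repeated another: chi-squared per degree of freedom ran from 7.82 to 236 between replicates.

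All 10 genes are named. From each list, genes called in any pair of tissues are named, up to 4 by lowest adjusted p, and the 3 genes most like each member with a mean of at least 5 CPM. That minimum held for the member and not for the genes matched to it. Arpp21, Aqp11 and Mns1 were named after their values were seen. From the lists, 3 genes are not reported here and were left out of counts and sums. The genes and lists were chosen with earlier results of these data known. Gene positions are from GENCODE on GRCm38. Python 3.11.15 with pandas 2.3.3, numpy 2.4.6, scipy 1.17.1 and matplotlib 3.10.9 was used. TCR repertoires and flow cytometry were not analysed here.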

Additional observations from a re-analysis of the deposited data

Results flagged for a closer look

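Within each tissue of 4 libraries, the highest or lowest library was set against the others by Dixon's test. It stood apart in 6 of 27 groups tested, and chance gives about 1 in 20. Zbtb7b was 32.0 CPM in mLN replicate 1, below the other mLN libraries at 57.4 to 60.1 CPM. Cd24a was 9.56 CPM in thymus replicate 2, above 0.379 to 1.73 CPM in the other thymus libraries, and Dntt was 13.2 CPM in the same library, above 1.52 to 1.65 CPM. Dntt was 1.74 CPM in spleen replicate 3, with 0 in the other spleen libraries. Rag1 in spleen replicate 2 (0.15 CPM) and Rag2 in mLN replicate 1 (0.13 CPM) stood apart from libraries at 0 by 1 count each. In the last 3 groups the other libraries were all at 0, which makes the gap the whole range by construction, so the rate that chance gives does not apply to them.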

How the results depend on the processing

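For thymus against spleen, 1 gene was called (2 in the reported fit) with at least 10 counts in every sample and with limma on log2(TPM + 1). It was 1 to 2 with libraries left out: 1 without each of replicates 1 to 4 and 2 without thymus replicate 2. For mLN against thymus the count was 1 with limma (3 reported) and 1 to 2 with libraries left out: 1 without replicate 1, 3 or 4 and 2 without replicate 2, thymus replicate 2 or spleen replicate 1. For iLN against thymus it was 1 with at least 10 counts, with limma and with the replicate block (2 reported), and 1 to 2 with libraries left out: 2 without replicate 1 and 1 without replicate 2, 3 or 4 or thymus replicate 2. For thymus against the mean of the others it was 4 with no filter, 1 with at least 10 counts and 2 without each replicate, and for the 4 tissues together 4 with no filter, 1 with at least 10 counts, 1 with limma and 2 without each replicate. The filter of 10 counts removes Rag1 by its construction. Without a filter Dntt enters (edgeR adjusted p = 6.23e-05) and Cd4 passes (edgeR adjusted p = 4.5e-05) for thymus against the mean of the others. DESeq2 also tested Dntt and did not call it there (log2 fold change 6.3, SE 2.72, DESeq2 adjusted p = 0.212). For the other lost calls the cause was not tested.

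The sign of a fold change turned for 3 genes. Cd24a for thymus against the mean of the others was -0.03 as reported, 0.0498 with DESeq2, 0.32 without batch, 0.21 with the replicate block, 0.0143 with limma, -0.82 to 0.89 over the fits without a replicate or thymus replicate 2, 0.21 without spleen replicate 1 and 0.55 with batch 2 alone. Cd4 for iLN against spleen was -0.16 without batch, -0.28 to 0.43 over the fits without a replicate, -0.03 without spleen replicate 1 and -0.48 with batch 2 alone, and for iLN against thymus -0.049 with batch 2 alone. Cd8a for mLN against spleen was -0.61 to 1.04 over the fits without a replicate. Themis kept its call against thymus in spleen, in mLN and in the mean of the tissues under all alternatives run, and in iLN under all but batch 2 alone (adjusted p = 0.128).

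Counts over all genes also moved with the settings. For thymus against spleen 179 genes were called, with 71 without replicate 4, 100 with limma and 407 with DESeq2. For mLN against thymus there were 217, with 71 without replicate 3, 107 with limma and 435 with no filter, and for iLN against thymus 204, with 34 without replicate 4, 111 with limma and 499 with DESeq2. For thymus against the mean of the others there were 247, with 109 without replicate 3 and 515 with no filter, and for the 4 tissues together 459, with 138 without replicate 3 and 1134 with no filter. For mLN against spleen there were 89, with 2 without replicate 3 and 273 with no filter, for iLN against spleen 211, with 51 without replicate 4 and 588 with DESeq2, and for iLN against mLN 64, with 19 without replicate 3 and 307 with DESeq2.

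The reported fit does not pair libraries by replicate number, and whether the numbers pair the samples was not settled. Deviations from tissue means correlated by 0.1141 (mean Pearson's r) between libraries of the same number (lowest 0.003938, 21 pairs). The mean was 0.0988 between those of the same batch with other numbers and -0.1031 between batches. With means of tissue and batch removed, it was 0.02254 for the same number (lowest 0.002504). The value for other numbers of the batch, -0.02254, is that value with its sign turned by construction and adds nothing to it. The paired libraries of a tissue and batch deviate from their mean by equal and opposite amounts. Of the 15 libraries, 14 correlated best with their own number, a hint of pairing from the data. With the replicate block the one count that changed was that of iLN against thymus, where Rag1 was no longer called (adjusted p = 0.0102). Genes of a few counts, Rag2, Dntt, Ptcra and Cd8b1, are limited by depth. For these and for the other genes, a difference that was not called is not shown to be absent.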
